A study of Mus musculus with 8 samples.

Results

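The genes described here encode 10 subunits of the BAF chromatin remodelling complex, and they were taken as a fixed list of symbols from the 18990 genes of the deposited expression table. They are the ATPases *Smarca4* and *Smarca2*, the scaffold subunits *Smarcc1* and *Smarcc2*, the accessory subunits *Smarcd1*, *Smarcd2* and *Smarcd3*, the core subunits *Smarcb1* and *Smarce1*, and *Arid1a*. All 10 were found in the table and all 10 passed the filter on low values. RNA-seq was measured in primary mouse embryonic fibroblasts (MEFs) of wild-type BL6 mice, and comprised 8 libraries in 4 groups of 2. The sample labels give reprogramming at passage 2, and the study's methods give an earlier passage at seeding. Cells of all groups were transduced with lentiviruses carrying rtTA and the tet-STEMCCA cassette. The cassette expresses Oct4, Sox2, Klf4 and c-Myc (OSKM) on doxycycline. The share of cells that carried both is not given in the sources used here. All cultures were kept in a reprogramming medium with doxycycline, Chiron, an Alk5 inhibitor, ascorbic acid and LIF. The groups were a knockdown of *Ncor1* (siNcor1), which encodes a nuclear receptor corepressor, or of *Oct4* (siOct4), each with 40 nM of a pool of 3 siRNAs, collected at day 3 or day 6 of reprogramming. Libraries of a non-targeting control were not analysed here, so every difference below sets 1 knockdown against the other, or day 6 against day 3 of the same knockdown.

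BAF complexes, the mammalian SWI/SNF remodellers, use the energy of ATP to slide or evict nucleosomes and so open DNA to transcription factors. Each complex has an ATPase, either SMARCA4 (BRG1) or SMARCA2 (BRM), on a shared core, and exchanges paralogous subunits between cell types. In embryonic stem cells the complex is built with SMARCA4 and SMARCC1, while SMARCA2, SMARCC2 and SMARCD3 belong to differentiated cells such as fibroblasts. The names stem cell form and fibroblast form below follow this usage and not the levels measured here. In every library *Smarca4* exceeded *Smarca2* and *Smarcc1* exceeded *Smarcc2*. SMARCA4 and SMARCC1 are also known to favour reprogramming when supplied together with the OSKM factors.

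In the annotation (GENCODE M21, GRCm38) *Smarca4* lies at chr9:21616169-21704230, *Smarcc1* at chr9:110117708-110240178, *Smarca2* at chr19:26605050-26778322 and *Smarcc2* at chr10:128459248-128490482, all on the + strand, and *Smarcd3* at chr5:24590818-24624411 on the − strand. The paralogs that exchange with each other were compared in sequence before their values were set side by side, because reads of one could in principle be counted on the other. Reads were 43 bases long, and no stretch of 43 bases was shared between the transcripts of any of the 10 genes of the same annotation. Over the aligned coding sequence *Smarca4* and *Smarca2* were 74.6% identical, with a longest identical run of 20 bases. *Smarcc1* and *Smarcc2* were 71.6% identical, with a longest run of 26 bases, and *Smarcd1* and *Smarcd3* were 73.7% identical, with a longest run of 21 bases. The most alike 90 bases of coding sequence of the ATPases and of the scaffold subunits, each within 1 exon, are shown from GRCm38 (mm10), with the bases that differ between the paralogs in capitals. The ATPases differ at 9 of the 90 bases and the scaffold subunits at 10, so that even here each read crosses bases that tell the paralogs apart.
Smarca4 chr9:21677573-21677662, + strand: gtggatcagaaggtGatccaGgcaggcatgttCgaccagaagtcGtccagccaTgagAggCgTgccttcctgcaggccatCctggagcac
Smarca2 chr19:26710581-26710670, + strand: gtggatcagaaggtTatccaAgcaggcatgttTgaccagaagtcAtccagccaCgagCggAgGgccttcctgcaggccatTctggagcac
Smarcc1 chr9:110213536-110213625, + strand: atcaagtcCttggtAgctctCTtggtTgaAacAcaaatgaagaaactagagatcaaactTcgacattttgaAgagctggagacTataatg
Smarcc2 chr10:128485587-128485676, + strand: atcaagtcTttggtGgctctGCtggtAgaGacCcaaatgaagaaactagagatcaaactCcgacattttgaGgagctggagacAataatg

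The 250 bases before the RefSeq transcription start (GRCm38.p6) are shown for the same 4 genes, since *Smarca2* and *Smarcc2* were both lower in siOct4 at day 6 and *Smarca4* and *Smarcc1* both fell between the days. The window of *Smarcc1* lies inside the GENCODE gene, and that of *Smarca2* runs past its GENCODE start. For these genes the windows describe the RefSeq start only. Capitals mark the GC box GGGCGG, the core of the site bound by SP1-like factors, on either strand.
Smarca4 chr9:21615919-21616168, + strand: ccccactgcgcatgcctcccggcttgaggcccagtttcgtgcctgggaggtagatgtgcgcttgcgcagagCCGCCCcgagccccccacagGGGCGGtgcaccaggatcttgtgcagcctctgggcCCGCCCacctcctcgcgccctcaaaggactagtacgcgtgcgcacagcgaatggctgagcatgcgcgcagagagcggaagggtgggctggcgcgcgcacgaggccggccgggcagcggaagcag
Smarcc1 chr9:110131774-110132023, + strand: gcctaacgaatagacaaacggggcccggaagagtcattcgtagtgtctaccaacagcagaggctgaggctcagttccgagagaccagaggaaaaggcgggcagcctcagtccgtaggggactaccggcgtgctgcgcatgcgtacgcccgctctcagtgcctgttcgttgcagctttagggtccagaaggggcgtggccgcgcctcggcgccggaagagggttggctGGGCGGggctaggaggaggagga
Smarca2 chr19:26604910-26605159, + strand: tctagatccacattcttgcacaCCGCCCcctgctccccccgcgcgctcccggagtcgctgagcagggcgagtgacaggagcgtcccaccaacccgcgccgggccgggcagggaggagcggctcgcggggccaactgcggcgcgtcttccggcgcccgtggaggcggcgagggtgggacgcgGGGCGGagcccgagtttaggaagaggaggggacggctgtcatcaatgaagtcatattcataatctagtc
Smarcc2 chr10:128458986-128459235, + strand: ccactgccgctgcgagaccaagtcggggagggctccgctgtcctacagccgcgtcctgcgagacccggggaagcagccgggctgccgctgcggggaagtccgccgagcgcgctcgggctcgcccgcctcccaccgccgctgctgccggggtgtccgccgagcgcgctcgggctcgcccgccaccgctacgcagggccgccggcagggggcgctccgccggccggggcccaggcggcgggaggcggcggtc
The GC box was present upstream of *Smarca4*, *Smarcc1* and *Smarca2* and not upstream of *Smarcc2*, and 32.7% of the 32851 RefSeq promoters held it. That share was not matched for CG content. The GC box was also present upstream of *Smarcd1*, *Smarcd2*, *Smarcd3*, *Smarcb1* and *Arid1a*. The octamer ATGCAAAT, read by OCT4, the E-box CACGTG, read by MYC, and the SOX core ACAAAG were searched on both strands too. None of these letters was found in any of the windows upstream of these 4 genes, while 1.60%, 6.02% and 16.5% of all promoters held the octamer, the E-box and the SOX core. *Smarcc2* had the window richest in CG dinucleotides of the 4, with 40 against a median of 6 over all promoters, and *Smarcc1* had 21.

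The libraries held between 7735742 and 16445192 reads on genes, the fewest in siOct4 day 3 replicate 2, and a single gene, *Gm26917*, took between 15.5% and 29.1% of them. The targeted genes were examined as a check of the labels. *Ncor1* had a log2 fold change of siOct4 against siNcor1 at day 3 of 0.74, lower under its own siRNA (SE 0.12, limma adjusted p = 0.0139), and at day 6 of −0.04 (SE 0.12, adjusted p = 0.815). For *Pou5f1*, which encodes OCT4, the same fold change was −0.08 at day 3 (SE 0.16, adjusted p = 0.941), while day 6 gave a higher level under siOct4 than under siNcor1 (1.78, SE 0.16, adjusted p = 0.000109). Its reads can come from the cassette as well as from the endogenous gene, and every direction given for siOct4 rests on these labels. Fibroblast markers were abundant in every library, with a summed level of 2583 to 11114 CPM over the 8 genes of the list. CPM are reads scaled to an effective library size, which was 0.951 to 1.05 times the reads on genes. Markers of macrophages and endothelial cells summed to at most 10.0 and 2.15 CPM.

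*Smarca4* was the most abundant of the 10 genes per length, with 48.5 CPM per kb of exon sequence on average over the 8 libraries (range 35.6 to 61.4). *Smarcc1* followed at 34.5 CPM per kb (26.1 to 45.0). The ranges of these stem cell forms overlapped across the groups, while within each group *Smarca4* was the higher. *Smarcd2*, *Smarcc2* and *Arid1a* formed a middle set. They stood at 19.2 CPM per kb (17.7 to 21.2), 17.8 CPM per kb (11.8 to 22.4) and 17.6 CPM per kb (14.0 to 20.0). These ranges overlapped across the groups, but the order changed within them. In siOct4 day 3 *Smarcc2* (22.4 and 21.9) lay above *Smarcd2* (18.5 and 17.7). In siOct4 day 6 *Smarcc2* (12.6 and 11.8) lay below *Smarcd2* (21.2 and 19.7). *Smarcd1*, *Smarce1* and *Smarcb1* came next at 11.0, 9.74 and 8.51 CPM per kb, again with overlapping ranges. *Smarca2* was lower at 4.13 CPM per kb (3.2 to 5.03), and *Smarcd3* was the lowest of all at 0.982 CPM per kb (0.464 to 1.39), from 28 to 105 reads in a library. The other 9 genes had at least 332 reads in every library. Division by the longest annotated transcript instead of all exonic bases kept *Smarca4* and *Smarcc1* on top, at 49.2 and 46.8 CPM per kb, and *Smarcd3* at the bottom, at 1.33 CPM per kb, but placed *Smarca2* (9.96 CPM per kb) above *Smarcb1* (9.07 CPM per kb).

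The level of 3 genes is less certain because part of their sequence is shared with other genes. *Smarce1*, which encodes an HMG-box subunit, shares 35.8% of its 43-base words with other genes, most of them with the pseudogene *Gm8494*. *Smarcd3* shares 2466 bases, 48.2% of its exonic sequence, with *Chpf2* on the opposite strand, which encodes an enzyme of chondroitin synthesis. *Smarcd1* shares 7.13% of its exonic bases with *Gm17349*, also on the opposite strand. Whether reads were assigned by strand is not given in the sources used here.

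**Figure D1:**
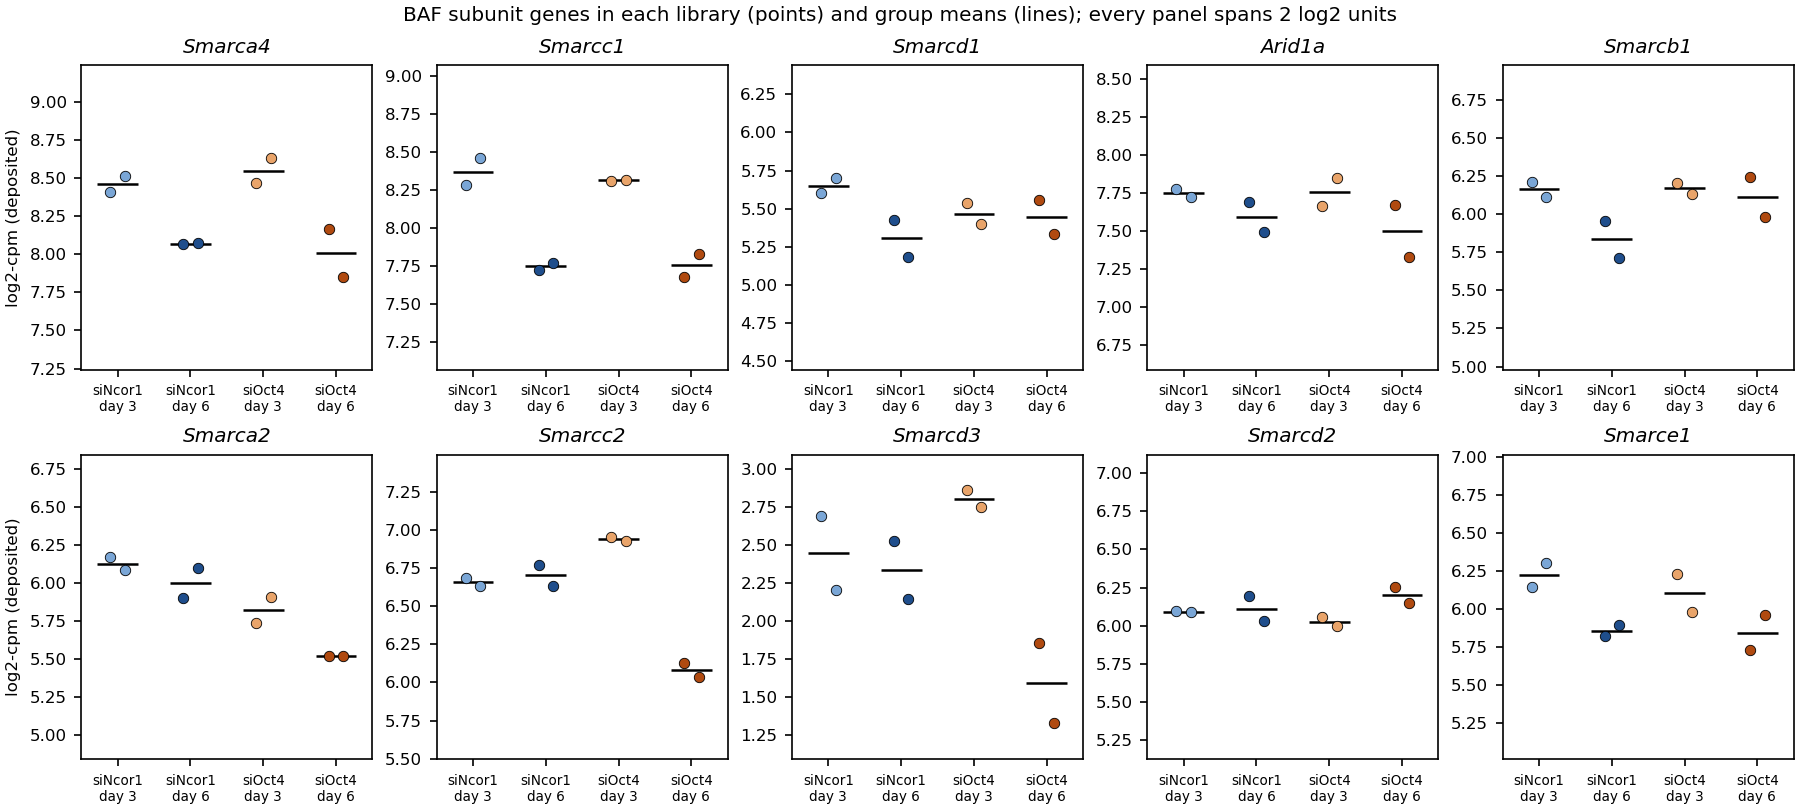
Deposited log2-cpm of the 10 genes (y axis, every panel spanning 2 log2 units) in each library (points) of the 4 groups (x axis), with group means as lines. *Smarca2*, *Smarcc2* and *Smarcd3* are lowest in both siOct4 day 6 libraries, while *Smarca4* and *Smarcc1* are lower at day 6 than at day 3 under either siRNA.

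The comparison of the knockdowns at day 3 asked whether the 10 genes already differed at this time. *Smarcc2*, the scaffold subunit among the fibroblast forms, had log2-cpm values of 6.68 and 6.63 in siNcor1 and 6.96 and 6.93 in siOct4. Both siOct4 libraries lay above both siNcor1 libraries, with a log2 fold change of 0.29 (SE 0.11, limma adjusted p = 0.348). *Smarca2*, the ATPase among the fibroblast forms, stood at 6.17 and 6.08 in siNcor1 and at 5.74 and 5.91 in siOct4. Here the siOct4 libraries lay below, with a log2 fold change of −0.30 (SE 0.12, adjusted p = 0.388). *Smarcd3* read 2.69 and 2.20 in siNcor1 and 2.86 and 2.75 in siOct4 (log2 fold change 0.36, SE 0.27, adjusted p = 0.760). The stem cell forms were close to 0, *Smarca4* at 0.09 (SE 0.13, 95% interval −0.21 to 0.38) and *Smarcc1* at −0.06 (SE 0.12, −0.32 to 0.20). The log2 fold changes of the other 5 genes lay between −0.19 and 0.01.

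By limma, 0 of the 10 genes passed an adjusted p of 0.05 at day 3, where 1.07% of the 13866 genes tested did, 0.375% higher and 0.692% lower in siOct4. *Smarcc2* and *Smarca2* were among the 1460 genes with an unadjusted limma p under 0.05. limma-voom on the read counts recovered from the deposited values called 0 of the 10 as well.

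At day 6, 2 of the 3 fibroblast forms were lower in siOct4 than in siNcor1, and the stem cell forms were not called. *Smarcc2* read 6.77 and 6.64 in siNcor1 and 6.13 and 6.04 in siOct4. The groups did not overlap, and siOct4 was lower by a log2 fold change of −0.62 (SE 0.11, limma adjusted p = 0.00240), which is 0.650 times the level in siNcor1. *Smarca2* read 5.90 and 6.10 in siNcor1 and 5.52 in both libraries of siOct4. It was lower in siOct4 with a log2 fold change of −0.48 (SE 0.12, adjusted p = 0.0137), 0.717 times the siNcor1 level. Without siNcor1 day 6 replicate 2, the higher of its siNcor1 libraries, the log2 fold change was −0.38 and the call was lost. That fit leaves 1 siNcor1 library at day 6, and fewer of all genes were called in it too.

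*Smarcd3*, which in the heart and skeletal muscle links BAF to lineage transcription factors, read 2.52 and 2.15 in siNcor1 and 1.86 and 1.33 in siOct4 at day 6. These are 68 and 51 reads against 33 and 28. The siOct4 libraries were again the lower, with the widest error of the 10 genes (log2 fold change −0.74, SE 0.27, adjusted p = 0.0533). *Chpf2*, which overlaps it, was also lower in siOct4 at day 6, at 6.29 in both siNcor1 libraries and at 5.65 and 5.64 in siOct4 (log2 fold change −0.64, SE 0.11, adjusted p = 0.00212). The part of reads from *Chpf2* in the value of *Smarcd3* was not tested.

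*Smarca4* read 8.07 in both siNcor1 libraries and 8.17 and 7.85 in siOct4, which bracketed them (log2 fold change −0.06, SE 0.13, 95% interval −0.36 to 0.23). *Smarcc1* read 7.72 and 7.77 in siNcor1 and 7.68 and 7.83 in siOct4, again on both sides (0.01, SE 0.12, −0.25 to 0.27). *Smarcb1*, a core subunit, read 5.96 and 5.71 in siNcor1 and 6.24 and 5.98 in siOct4, a log2 fold change of 0.28 (SE 0.13, adjusted p = 0.139). *Smarcd1*, *Smarcd2*, *Smarce1* and *Arid1a*, the DNA-binding subunit that marks canonical BAF, had log2 fold changes between −0.09 and 0.14.

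In all, 2 of the 10 genes were called at day 6, both lower in siOct4 and both of the fibroblast forms, where 30.7% of all genes were called, 12.1% higher and 18.6% lower. The median log2 fold change of the 10 was −0.04, and over all genes it was −0.03. The share called was thus near that of genes in general. The 3 fibroblast forms had log2 fold changes of −0.48 to −0.74, and the 2 stem cell forms −0.06 and 0.01. At the same time 6 of the 8 fibroblast markers were lower in siOct4, and their summed level was 2583 to 2737 CPM against 4645 to 5046 CPM in siNcor1. The summed level of the 9 epithelial and pluripotency markers was also lower, at 191 to 208 CPM against 334 to 349.6 CPM, with 3 of the 7 tested called lower. Muscle markers summed to 15.3 to 20.7 CPM against 23.5 to 27.0 CPM, and neuron markers to 112 to 127 CPM against 46.2 to 48.7 CPM. In such bulk libraries fewer cells of a type and less RNA per cell cannot be told apart, and the part of cell composition in these differences was not tested.

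**Figure D2:**
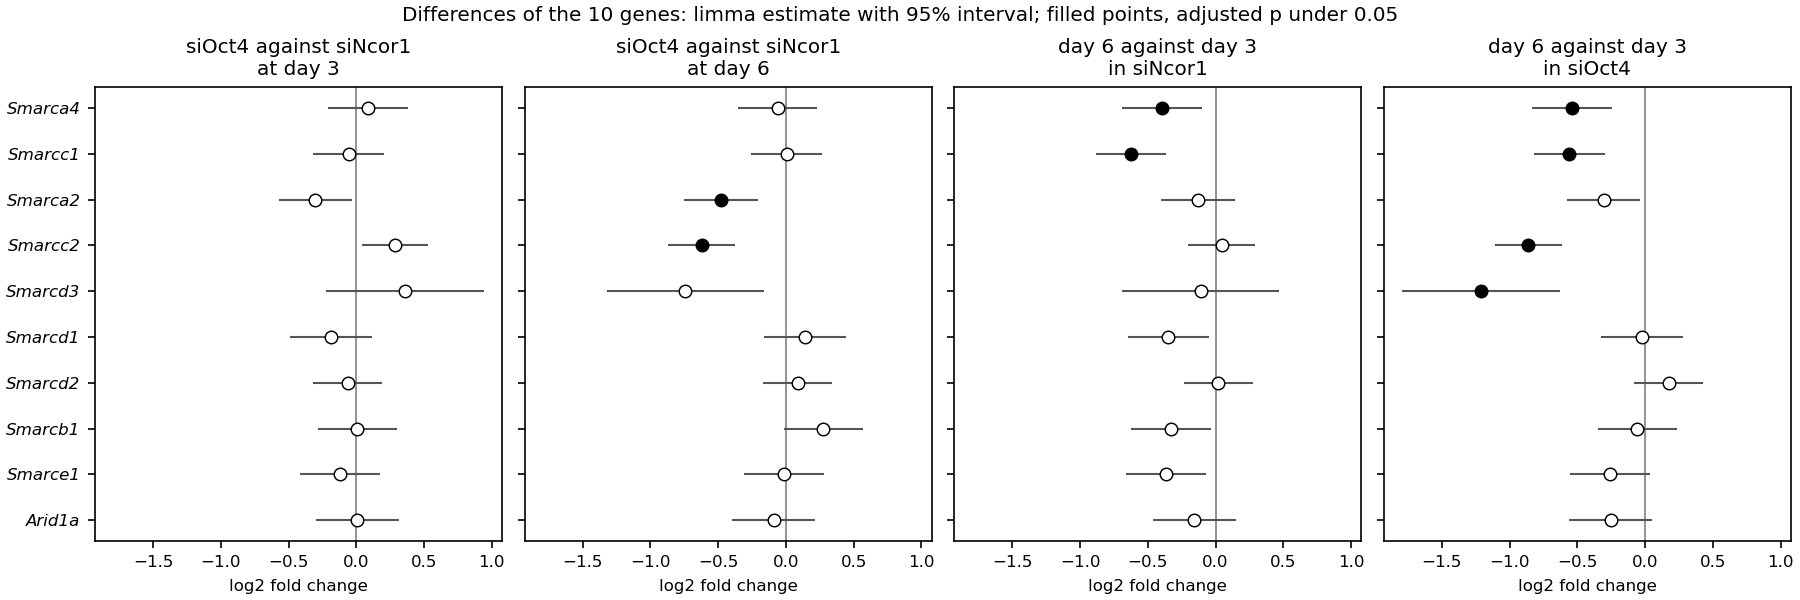
log2 fold changes (x axis) of the 10 genes (rows) in the 4 comparisons (panels), as limma estimates with 95% intervals, where filled points passed an adjusted p of 0.05. At day 6 the filled points are *Smarca2* and *Smarcc2*, both lower in siOct4, and between the days *Smarca4* and *Smarcc1* are filled under either siRNA.

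The change between the days was then examined within each knockdown. In siNcor1 the stem cell forms fell and the fibroblast forms were not called. *Smarcc1* read 8.28 and 8.46 at day 3 and 7.72 and 7.77 at day 6, and fell by 0.62 on the log2 scale (SE 0.12, limma adjusted p = 0.00231). *Smarca4* read 8.41 and 8.51 at day 3 and 8.07 in both libraries of day 6, and fell by 0.39 (SE 0.13, adjusted p = 0.0403). The call of *Smarca4* was close to the threshold. It was lost in 11 of 18 alternative fits, among them median centring, quantile normalization and totals without *Gm26917* (adjusted p = 0.110), and the adjusted p was 0.204 without siNcor1 day 3 replicate 2.

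Of the core and accessory subunits in siNcor1, *Smarce1* had a log2 fold change of −0.37 (SE 0.14, adjusted p = 0.0537), *Smarcd1* of −0.35 (SE 0.14, adjusted p = 0.0702) and *Smarcb1* of −0.33 (SE 0.13, adjusted p = 0.0780). For each of them both day 6 libraries lay below both day 3 libraries. The fibroblast forms differed less, with *Smarca2* at −0.13 (95% interval −0.40 to 0.14), *Smarcc2* at 0.05 (−0.20 to 0.29) and *Smarcd3* at −0.11 (−0.69 to 0.47). *Arid1a* and *Smarcd2* were at −0.16 and 0.02. Thus 2 of the 10 genes fell and 0 rose, where 34.8% of all genes were called, 13.8% higher and 20.9% lower at day 6.

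In siOct4 both stem cell forms fell too, and so did 2 of the 3 fibroblast forms. *Smarcc2* went from 6.96 and 6.93 at day 3 to 6.13 and 6.04 at day 6 and fell by 0.86 on the log2 scale (SE 0.11, limma adjusted p = 7.44e-05), the smallest adjusted p of the 10 genes in this comparison. *Smarcd3* went from 2.86 and 2.75 (105 and 52 reads) to 1.86 and 1.33 (33 and 28 reads), and fell by 1.21 (SE 0.27, adjusted p = 0.00249). *Chpf2* fell by 0.49 in the same comparison (SE 0.11, adjusted p = 0.00337), while in siNcor1 it rose by 0.49 (SE 0.11, adjusted p = 0.00667), where *Smarcd3* was at −0.11.

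*Smarcc1* read 8.31 and 8.32 at day 3 and 7.68 and 7.83 at day 6 in siOct4, and fell by 0.56 (SE 0.12, adjusted p = 0.00209). *Smarca4* read 8.47 and 8.63 at day 3 and 8.17 and 7.85 at day 6, and fell by 0.54 (SE 0.13, adjusted p = 0.00522). This call was lost under quantile normalization (adjusted p = 0.0616) and without siOct4 day 3 replicate 2 (0.0536). *Smarca2* went from 5.74 and 5.91 to 5.52 in both libraries, a log2 fold change of −0.31 (SE 0.12, adjusted p = 0.0566). Of the others, *Smarce1* was at −0.26 (SE 0.14, adjusted p = 0.125), *Arid1a* at −0.26 (SE 0.14, adjusted p = 0.145) and *Smarcb1*, *Smarcd1* and *Smarcd2* between −0.06 and 0.17.

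In this comparison 4 of the 10 genes fell and 0 rose, where 52.7% of all genes were called, 22.2% higher and 30.5% lower. Over all genes 3079 were higher and 4233 lower. With raw totals that left out *Gm26917*, which also drop the effective library sizes, the split was 3815 to 3441. The median log2 fold change of all genes moved from −0.08 to 0.06. The same 4 genes were called lower with those totals, and *Smarcd2* was called higher. The fibroblast markers moved with the days in siOct4 as well, from a summed 9390 to 11114 CPM at day 3 to 2583 to 2737 CPM at day 6, with 6 of 8 falling and 1 rising. In siNcor1 the sum went from 6821 to 7029 CPM at day 3 to 4645 to 5046 CPM at day 6, with 3 falling and 3 rising. All 7 tested epithelial and pluripotency markers rose under either siRNA. Their list summed to 51.1 to 52.9 CPM at day 3 in siNcor1 and to 10.4 to 16.3 CPM in siOct4, where *Zfp42* and *Dppa4*, markers of late reprogramming, had 0 reads in all day 3 libraries. Their part in the falls of the 10 genes was not tested.

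The change of the knockdown difference between day 3 and day 6 was tested as an interaction over all 4 groups. For *Smarcc2* the siOct4 libraries were the higher at day 3 (not called) and the lower at day 6. It was the single gene of the 10 to pass (change −0.91, SE 0.16, limma adjusted p = 0.00294). It passed in all 17 alternative fits, with adjusted p of at most 0.0232. *Smarcd3* changed in the same direction by −1.10 with a wider error (SE 0.38, adjusted p = 0.0583). *Smarca2*, with −0.30 at day 3 (not called) and −0.48 at day 6, had a change of −0.18 (SE 0.18, 95% interval −0.56 to 0.21). *Smarca4* and *Smarcc1* changed by −0.15 (−0.56 to 0.27) and 0.06 (−0.31 to 0.43). Over all genes 20.7% passed, 7.77% with a positive and 12.9% with a negative change, and 7 of the 8 fibroblast markers were among the latter.

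The stem cell and fibroblast forms were then set against each other within each library, as a ratio of CPM per kb, which does not depend on the library total. These ratios are given as a description, without a test. *Smarca4* exceeded *Smarca2* in every library. The ratios were 10.4 and 11.9 in siNcor1 day 3, 14.6 in both siOct4 day 3 libraries, 9.92 and 8.68 in siNcor1 day 6 and 13.9 and 11.1 in siOct4 day 6. On either day siOct4 lay above siNcor1, by 1.31 times at day 3 and 1.34 times at day 6, and under either siRNA day 6 lay below day 3.

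*Smarcc1* also exceeded *Smarcc2* in every library, but by less. Its ratios were 2.15 and 2.52 in siNcor1 day 3, 1.81 and 1.86 in siOct4 day 3, 1.37 and 1.56 in siNcor1 day 6 and 2.08 and 2.46 in siOct4 day 6. The order of the knockdowns turned between the days, from 0.788 times in siOct4 relative to siNcor1 at day 3 to 1.55 times at day 6. In siNcor1 the ratio went down between the days to 0.628 times its level, and in siOct4 it went up to 1.23 times.

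For *Smarcd3* the partner was *Smarcd1*, the SMARCD subunit of the stem cell complex. The ratios were 9.75 and 14.8 in siNcor1 day 3, 8.26 and 8.12 in siOct4 day 3, 9.71 and 10.7 in siNcor1 day 6 and 17.1 and 21.5 in siOct4 day 6. Both siOct4 day 6 libraries lay above all 6 others, and the group stood at 1.88 times siNcor1 at day 6 and at 2.34 times siOct4 at day 3. At day 6, therefore, the ratio of each of the 3 pairs was higher in both siOct4 libraries than in both siNcor1 libraries. The sizes of the ratios depend on the gene lengths, and with the longest transcripts *Smarca4* exceeded *Smarca2* by 3.66 to 6.17 times, *Smarcc1* exceeded *Smarcc2* by 1.52 to 2.81 times and *Smarcd1* exceeded *Smarcd3* by 7.29 to 19.3 times, while differences between groups are the same with any length.

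**Figure D3:**
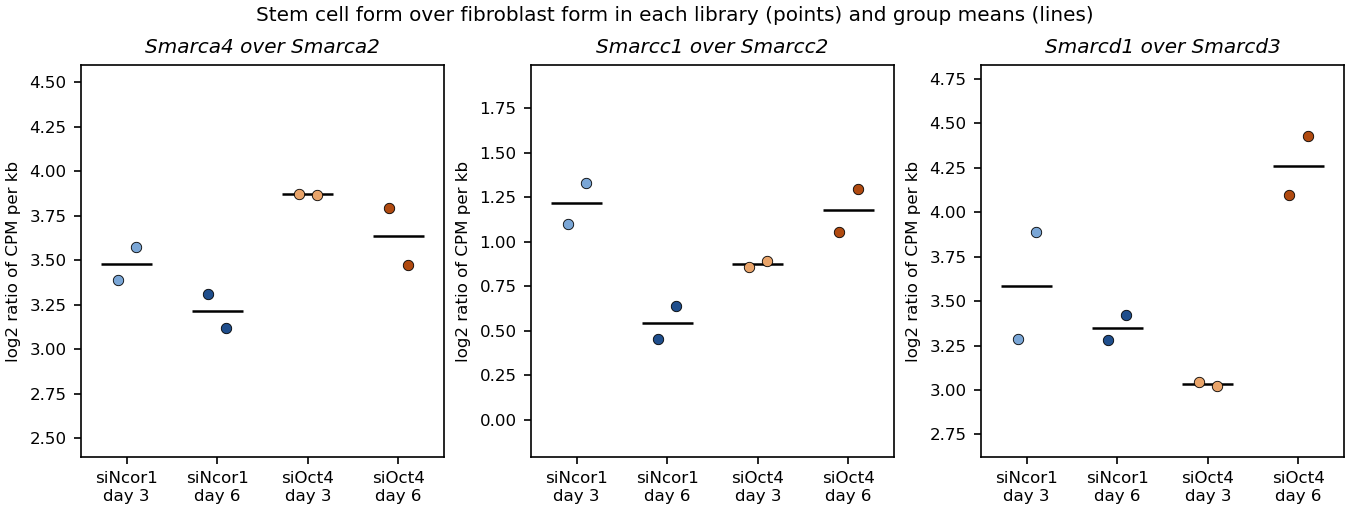
log2 ratio of CPM per kb (y axis) of the stem cell form over the fibroblast form in each library (points) of the 4 groups (x axis), with group means as lines, for the 3 pairs. In each panel both siOct4 day 6 points lie above both siNcor1 day 6 points, and for *Smarcc1* over *Smarcc2* the siNcor1 points go down between the days while the siOct4 points go up.

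The other subunits of the SWI/SNF family were examined from lists given as symbols. Of 10 further BAF subunits, 0 were called at day 3, where 1.07% of all genes were. At day 6 2 were higher and 1 was lower in siOct4, where 30.7% of all genes were called. The share called at day 6 was thus near that of genes in general. The higher ones were *Bcl11a* and *Bcl11b*, zinc finger transcription factors that join BAF in neural and lymphoid cells. *Bcl11a* read 2.06 and 1.66 in siNcor1 and 3.97 and 3.22 in siOct4 (log2 fold change 1.73, SE 0.25, limma adjusted p = 0.000750), and *Bcl11b* 3.24 and 3.16 against 4.70 and 4.45 (1.37, SE 0.18, adjusted p = 0.000499). For both genes the siOct4 libraries were the higher by more than the spread of their replicates. *Arid1b*, which takes the place of *Arid1a* in a share of BAF complexes, was lower in siOct4 (−0.37, SE 0.13, adjusted p = 0.0471). This call was lost under median centring, quantile normalization and totals without *Gm26917*. Under each of these settings *Actl6a* was called higher in siOct4 at day 6. It read 5.35 and 5.19 in siNcor1 and 5.51 and 5.76 in siOct4.

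Of the 2 tested genes from the list of neuron and muscle subunits, *Dpf1*, a PHD finger subunit of neuronal BAF, was higher in siOct4 at day 6 (log2 fold change 1.18, SE 0.22, adjusted p = 0.00301), and *Ss18l1*, a neuronal SS18 paralog, was at −0.20 (SE 0.25, adjusted p = 0.586). Of 3 neuron markers tested, *Tubb3* and *Map2* were called higher, and *Syn1* was at −0.43 (SE 0.25, adjusted p = 0.202). Of the 4 subunits particular to PBAF, the form built on *Pbrm1*, 0 were called between the knockdowns at either day. Over all genes 1.07% were called at day 3 and 30.7% at day 6. Of the 3 subunits of ncBAF, 0 were called at day 3, and at day 6 *Bicral* was lower in siOct4 (−0.61, SE 0.17, adjusted p = 0.0187).

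Between the days *Pbrm1* and *Arid2* of the 4 PBAF subunits fell under either siRNA. In siNcor1 3 of the 4 fell, where 20.9% of all genes were called lower, *Pbrm1* by 0.88 (SE 0.13, adjusted p = 0.000484), *Phf10* by 0.74 (SE 0.20, adjusted p = 0.0154) and *Arid2* by 0.60 (SE 0.12, adjusted p = 0.00244). In siOct4 *Pbrm1* fell by 1.06 (SE 0.13, adjusted p = 4.52e-05), *Arid2* by 0.54 (SE 0.12, adjusted p = 0.00211) and *Brd7* by 0.34 (SE 0.13, adjusted p = 0.0475), where 30.5% of all genes were called lower. *Phf10* was at 0.03 in siOct4 (adjusted p = 0.896) and *Brd7* at −0.30 in siNcor1 (adjusted p = 0.0994). The call of *Brd7* was lost under median centring, quantile normalization and totals without *Gm26917*, and that of *Arid2* in siOct4 under quantile normalization. The median log2 fold change of the 4 was −0.67 in siNcor1 and −0.44 in siOct4, against −0.07 and −0.08 over all genes. Over the 9223 genes that averaged 10 CPM or more, as these 4 did, the median was −0.15 and −0.19. Of the 10 further BAF subunits 4 fell and 0 rose in siNcor1, beside 20.9% of all genes lower and 13.8% higher. They were *Bcl11a*, which changed most (−1.84, SE 0.25, adjusted p = 0.000293), *Bcl11b*, *Actb* and *Ss18*. The call of *Ss18* was lost under median centring, quantile normalization and totals without *Gm26917*. In siOct4, where 30.5% of all genes were lower and 22.2% higher, 2 fell, *Actb* (−1.45) and *Arid1b*. The call of *Arid1b* was lost under quantile normalization. *Bcl11b* rose by 0.50 in siOct4 (SE 0.18, adjusted p = 0.0348). ncBAF had 0 called of 3 in siNcor1, and in siOct4 *Bicral* fell by 0.71 (SE 0.17, adjusted p = 0.00414).

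The ATPases of other remodeller families, 21 genes such as *Chd4* and *Ino80*, were counted beside *Smarca4*. Between the knockdowns 0 were called at day 3, where 1.07% of all genes were. At day 6 *Chd7* was higher and *Atrx* lower in siOct4, where 30.7% of all genes were called. Between the days 11 of 21 fell and 0 rose in siNcor1, and 13 fell and 1 rose in siOct4, where 20.9% and 30.5% of all genes were called lower. With totals without *Gm26917*, which brought the numbers of all genes called higher and lower closer, 8 fell and 0 rose in siNcor1 and 9 fell and 3 rose in siOct4. With the deposited scaling their median log2 fold changes were −0.41 in siNcor1 and −0.42 in siOct4, near the −0.39 and −0.54 of *Smarca4*. Of the 9223 genes that averaged 10 CPM or more, 2650 were called lower and 1177 higher in siNcor1. In siOct4 these numbers were 3566 and 1819.

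**Figure D4:**
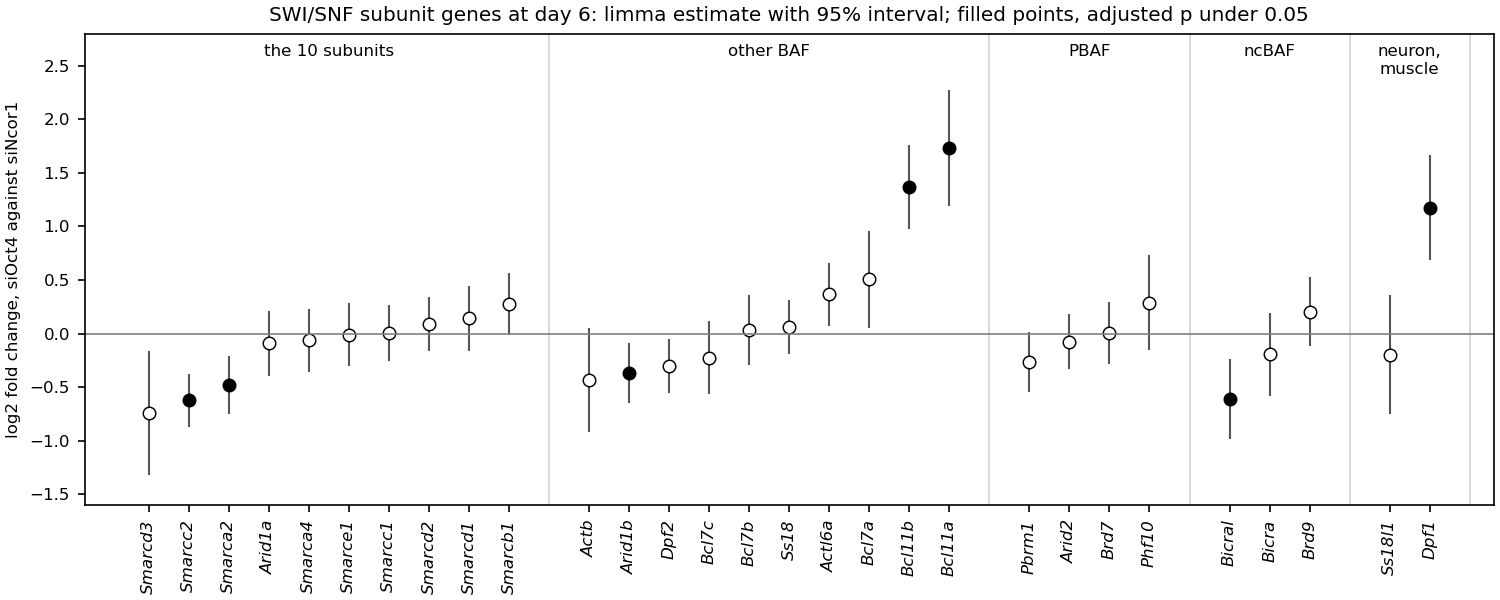
log2 fold change of siOct4 against siNcor1 at day 6 (y axis) for the 10 genes and the tested genes of the other SWI/SNF subunit lists (x axis, grouped by list and ordered by value), with 95% intervals, where filled points passed an adjusted p of 0.05. *Bcl11a*, *Bcl11b* and *Dpf1* stand highest, and *Smarcc2*, *Smarca2*, *Arid1b* and *Bicral* are the filled points below 0.

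The genes whose pattern over the 8 libraries was most like that of 4 of the subunits were found by Pearson's correlation of log2-cpm, among the 9222 or 9223 other genes that averaged 10 CPM or more. These values rank genes over libraries that share their groups and depths, and are a description. *Smarcc1* was most like *Baz1b*, *Gxylt1* and *Hsph1* (r = 0.998, 0.998 and 0.997), of which *Baz1b* encodes a bromodomain subunit of an ISWI remodeller. *Smarca4* was most like *Gtf3c1*, *Zc3h4* and *Bahcc1* (r = 0.987, 0.983 and 0.981). *Smarca2* was most like *Patj*, *Stxbp5* and *Deptor* (r = 0.986, 0.977 and 0.962), and *Smarcd3* was most like *Fhl3*, *Slc9a3r2* and *Ap2a1* (r = 0.992, 0.992 and 0.987).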

How the data were processed

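RNA-seq libraries of 4 groups with 2 replicates each were analysed, grouped by the sample titles. The authors aligned reads to mm10 with STAR 2.5.2b and deposited log2-cpm values computed with edgeR 3.20.9. The tool and annotation used to count reads on genes are not given in the sources used here, nor is whether the 2 replicates of a group, which the study calls biological, come from separate animals or cultures, so p-values measure the spread between these libraries. Subtracting a constant of 0.136 CPM on the linear scale gave whole numbers of reads for 100% of values (tolerance 0.1 read). CPM and reads were taken from these, and were used for levels, ratios and the limma-voom alternative. The reads of replicates differed beyond sampling noise, with a chi-square of 9.38 to 22.0 for each degree of freedom, and each library was 1 replicate.

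Of the 18990 genes, 18969 matched GENCODE M21 by identifier, which gave exon lengths and transcripts, and promoter sequences came from RefSeq (GRCm38.p6). The 10 subunits and the other gene lists were chosen with earlier results of these data known. All 10 members are named, and from the other lists the genes named are at most 4 per comparison, those with the largest change among genes called, plus genes that a small count singles out.

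The 13866 genes that averaged 1 CPM or more were tested with limma 3.58.1 in R 4.3.3, with a variance trend, on the deposited log2 values, all 4 groups together, with Benjamini-Hochberg adjustment over all genes at 0.05. Fold changes are on the scale of log2(CPM + 0.136), which understates those of low genes. The code was tested on simulated data. Alternatives were no variance trend, median centring, quantile normalization, no filter, a filter at 10 CPM and a pseudocount of 1 CPM. Others were a replicate block, only the groups compared, limma-voom, totals without *Gm26917* and leaving out each library. The totals without *Gm26917* were raw sums of reads, without the effective library sizes of the deposited values.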

Additional observations from a re-analysis of the deposited data

Results flagged for a closer look

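By the interaction test (limma, adjusted p over all genes), the knockdown difference of 4 SWI/SNF subunit genes changed from day 3 to day 6. Over all genes 20.7% passed this test. It was passed by 1 of the 10 genes, 2 of 10 further BAF subunits and 1 of 2 tested neuron and muscle subunits. Of PBAF 0 of 4 passed, and of ncBAF 0 of 3. *Smarcc2* changed by −0.91 on the log2 scale (adjusted p = 0.00294), from higher in both siOct4 libraries at day 3 to lower in both at day 6. Its difference at day 3 was not called (log2 fold change 0.29, limma adjusted p = 0.348). *Bcl11a* changed by 2.00 (adjusted p = 0.00300), *Bcl11b* by 1.30 (adjusted p = 0.00523) and *Dpf1* by 1.34 (adjusted p = 0.0133). For these 3 genes the siOct4 libraries were above both siNcor1 libraries at day 6 and not at day 3.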

How the results depend on the processing

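The number of subunits called among the 10 at day 3 was 0 in all settings. At day 6 it was 2 in the 9 alternatives that keep all libraries and use no block. When leaving out 1 library it varied. *Smarca2* was lost without siNcor1 day 6 replicate 2, a fit in which fewer of all genes were called too. Between the days in siNcor1 the number called was 1 without the variance trend and without the filter. It was also 1 with median centring, quantile normalization and totals without *Gm26917*. It was 5 with only the groups compared and 2 or 3 in the remaining alternatives that keep all libraries and use no block. When leaving out 1 library it varied. In siOct4 it was 3 to 5 when leaving out 1 library. For the change of the difference it was 1 to 2 when leaving out 1 library (2 without siOct4 day 6 replicate 1, which adds *Smarcd3*). In the pairing check the deviations of same-numbered libraries correlated between −0.04 and 0.28, with 2 pairs per comparison, and no source used here states that the numbers mark a pairing, so whether they pair the libraries is not known. With the replicate block the number called was 0 at day 3, 3 at day 6 (adding *Smarcd3*), 4 between the days in siNcor1, 4 in siOct4 and 2 for the change, and over all genes it was 222, 4698, 5218, 7570 and 3395 against 148, 4251, 4819, 7312 and 2867 without the block. *Smarcc1* and *Smarcc2* kept each of their calls under every alternative.

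The mean log2 ratio of *Smarca4* to *Smarca2* was 2.41 without division by length and 2.30 with the longest transcript, that of *Smarcc1* to *Smarcc2* 1.45 and 1.11, and that of *Smarcd1* to *Smarcd3* 3.21 without length. Small differences of uncalled genes turned sign. *Smarca2* between the days in siNcor1 was 0.054 with quantile normalization. Leaving out 1 library, *Smarca4* between the knockdowns at day 6 ranged from −0.22 to 0.097 and its change from −0.31 to 0.010. *Smarcc1* ranged from −0.15 to 0.033 at day 3 and from −0.070 to 0.085 at day 6, with a change of −0.025 to 0.15. Between the days in siNcor1, *Smarcc2* ranged from −0.023 to 0.12 and *Smarcd3* from −0.35 to 0.13. Of 17 further differences, all under 0.19 in size, 11 turned sign in at least 1 alternative. The causes were not tested.

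With 2 libraries a group, whether a difference passed depended on the spread of the gene as well as on its size. The −0.37 of *Smarce1* between the days in siNcor1 did not pass the threshold. There *Ss18*, with a mean log2-cpm of 6.40 at day 3 and 6.04 at day 6, was called lower. Intervals of the change of the difference are wider than those of its parts. *Smarcd3* rests on 28 to 105 reads a library and its interval is wider. A fit that leaves out a library assumes that the lone library of its group varies like the other groups.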
